A study of Triticum aestivum with 6 samples.

Results

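The signals of 3 probes for WRKY transcription factors, of 37826 probes on the KOMUGI 38k wheat array, were examined in crown tissues of synthetic hexaploid wheat. They were rwhcs14n21_490, described in the study as wheat WRKY10, MUGEST2003_23lib_Contig5310_624, described as a wheat WRKY protein with no number, and wheat0130Contig6080, described as WRKY54 of Brachypodium distachyon. They were taken from the study's list of transcription factor probes that were higher in crt/KU-2025 than in the wild type (WT), so that this difference chose them. All 3 probes were found once on each of the 6 arrays. The WRKY13 probe of the same list was left outside the set and is given with the other WRKY probes.

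WRKY proteins are plant transcription factors with a conserved DNA-binding domain, named after its amino acid residues, which binds the W-box in the promoters of target genes. Members of the family are known as regulators of responses to pathogens and salicylic acid, of leaf senescence, and of tolerance to drought, salt and cold. Many WRKY genes are themselves induced when a pathogen is recognized. The numbers in WRKY names are not the same between species, and the names here rest on the best protein matches of the probes. A second description that the study gives for the same probes names WRKY50 for rwhcs14n21_490, WRKY75 for MUGEST2003_23lib_Contig5310_624 and WRKY70 for wheat0130Contig6080.

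Crown tissues, which hold the shoot apical meristem, were taken from 3 lines grown for 8 weeks at 24°C, under 18 h light and 6 h dark a day. Such lines carry the A and B genomes of their tetraploid parent and a D genome from Aegilops tauschii. WT (Ldn/KU-2059) and Ldn/KU-2025 share the tetraploid parent Langdon (Ldn) and differ in the Ae. tauschii parent, KU-2059 or KU-2025. In crt/KU-2025 the Ae. tauschii parent was again KU-2025 and the tetraploid parent was an accession of T. turgidum subsp. carthlicum, so that it differs from WT in both parents. The labels call both Ldn/KU-2025 and crt/KU-2025 grass-clump dwarf. Type II necrosis, for which these lines are named in the study, needs low temperature, and at 24°C the plants are dwarf without necrosis. Each line was hybridized on 2 arrays from independent experiments. Whether these came from separate plants is not given in the sources used here, and p-values measure the spread between these arrays. In whole crown tissue, a smaller number of cells of a type and less RNA per cell cannot be told apart.

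Between 75.1% and 77.6% of the probes passed the flag for signal well above background on an array, and the flag for saturation was set for 0 probes. The WT and Ldn/KU-2025 arrays lay on slide 1 and the crt/KU-2025 arrays on slide 2, so that differences of crt/KU-2025 from the other lines and differences between the slides cannot be told apart. The 2 crt/KU-2025 arrays differed widely in probes of green leaf tissue and of cell division. The summed scaled signal of 16 chlorophyll a-b binding, ribulose bisphosphate carboxylase and activase probes was 16100 on replicate 1 of crt/KU-2025 and 164800 on replicate 2, against 5123 to 5231 in WT and 27370 to 28150 in Ldn/KU-2025. That of 4 histone probes and the AIL5 probe, a marker of dividing shoot apex, was 2344 and 446 in crt/KU-2025. It was 27200 to 27260 in WT and 6733 to 7280 in Ldn/KU-2025. On each crt/KU-2025 array, 3 of these 5 probes were well above background. The study listed the probes of both groups on these same arrays. It names chlorophyll a-b binding and ribulose bisphosphate carboxylase genes among those higher in Ldn/KU-2025 than in WT. Histone genes and AIL5 are named among those lower in crt/KU-2025. These directions are therefore a description.

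All 3 WRKY probes gave their highest signals on both crt/KU-2025 arrays. The ratios of crt/KU-2025 to WT are a description, with no test, since the probes were listed for this difference. All 3 measured ratios were above 3-fold, as were those of 12.7% of all probes, and both crt/KU-2025 arrays were above both WT arrays for 3 of 3 probes, against 44.6% of all probes. The same held for the ratios to Ldn/KU-2025, which were above 3-fold for 10.1% of all probes, with both crt/KU-2025 arrays the higher ones for 47.8%. The WRKY54 probe was well above background in crt/KU-2025 alone, and its bounds against the other lines were below 3-fold. A further rule needs at least 3-fold and an adjusted p under 0.05 by limma, and its calls are not given here for the 3 probes. By this rule, 9.39% of all probes were called higher and 9.98% lower in crt/KU-2025 with Ldn/KU-2025 as the reference.

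The WRKY10 probe, rwhcs14n21_490, had the largest ratio of the set. Wheat WRKY10 is known for raising tolerance to drought and salt when expressed in transgenic tobacco. The scaled signals were 229 and 238 in WT, 332 and 327 in Ldn/KU-2025 and 7562 and 9574 in crt/KU-2025. The lines did not overlap, and the probe was well above background on all 6 arrays. The mean was 233 ± 6.65 in WT and 329.5 ± 3.11 in Ldn/KU-2025, and it reached 8568 ± 1420 in crt/KU-2025 (SD, n = 2 each). This was 36.5-fold over WT in crt/KU-2025, or 5.19 on the log2 scale, and 361 probes (0.954%) had a larger ratio. Against Ldn/KU-2025 the signal in crt/KU-2025 was 25.8-fold higher, or 4.69 on the log2 scale.

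The unnumbered WRKY probe, MUGEST2003_23lib_Contig5310_624, followed the same order of lines. Its second description, WRKY75, is the name of an Arabidopsis gene known for its part in leaf senescence and in the response to phosphate starvation. The scaled signals were 196 and 191 in WT, 262 and 287 in Ldn/KU-2025 and 2958 and 3157 in crt/KU-2025. The lines did not overlap, and the probe was well above background on all 6 arrays. The mean was 193 ± 3.32 in WT and 275 ± 17.7 in Ldn/KU-2025, and it reached 3058 ± 141 in crt/KU-2025 (SD, n = 2 each). The ratio of crt/KU-2025 to WT was 15.8-fold, or 3.98 on the log2 scale, and 734 probes (1.94%) had a larger one. Against Ldn/KU-2025 it was 11.1-fold, or 3.48 on the log2 scale.

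The WRKY54 probe, wheat0130Contig6080, was dim in all lines. In Arabidopsis, WRKY54 and the related WRKY70 are known as regulators of salicylic acid responses and of leaf senescence. The scaled signals were 7.7 and 7.9 in WT, 6.6 and 10.9 in Ldn/KU-2025 and 50.7 and 44.3 in crt/KU-2025. The probe was well above background on both crt/KU-2025 arrays and on 0 of the 4 others, where the lowest signal of any probe well above background was 23.9 to 27.9. Feature Extraction gave errors for its signal, here on the same scale. They were 6.59 to 7.88 in WT and Ldn/KU-2025 and 9.27 and 8.41 in crt/KU-2025. In WT and on Ldn/KU-2025 replicate 1 the errors were close to the signals themselves. On Ldn/KU-2025 replicate 2 the error was 6.72 for the signal of 10.9, which passed another flag, for a positive and significant signal. Measured against the lowest detected signals, the level in crt/KU-2025 was at least 1.71-fold higher than in WT and at least 1.97-fold higher than in Ldn/KU-2025. In these bounds, the probe was set on each WT or Ldn/KU-2025 array at the higher of its own signal and the lowest signal well above background. The bounds take no account of the errors of the signals. The measured ratios were 2.60 and 2.48 on the log2 scale, and they rest on WT and Ldn/KU-2025 signals that were not well above background.

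**Figure D1:**
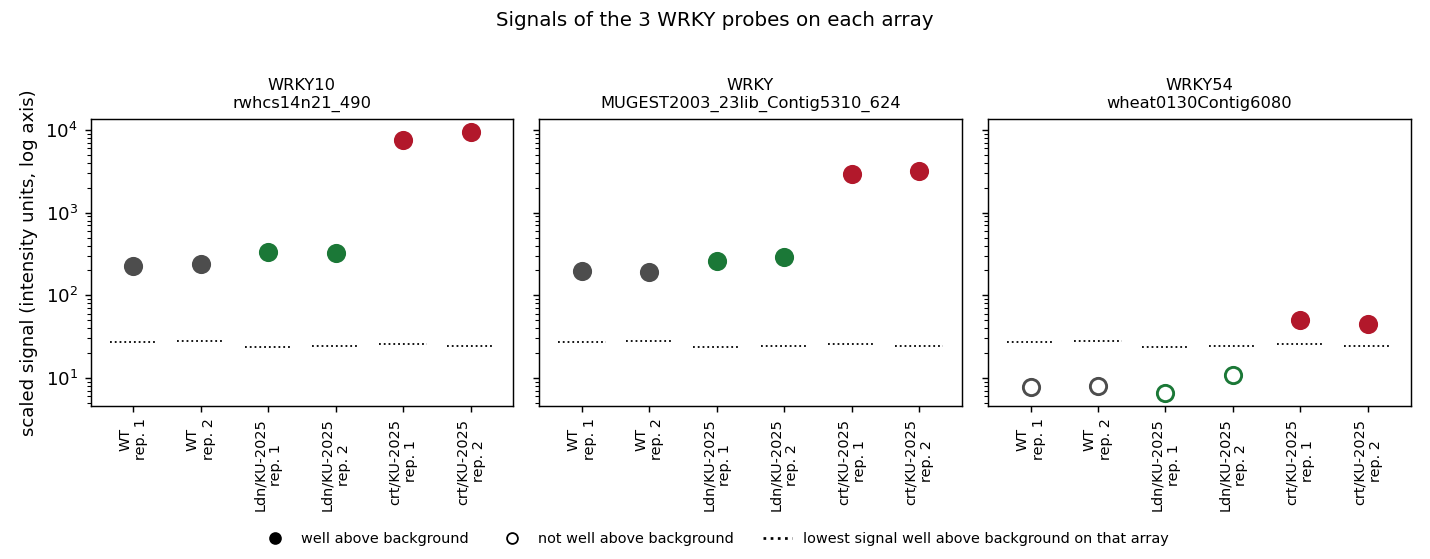
Scaled signal (log axis) of the 3 WRKY probes on each of the 6 arrays, with open points for signals not well above background and dotted lines at the lowest signal well above background on that array. Signals of the WRKY10 probe on the crt/KU-2025 arrays were 7562 and 9574, against 229 to 332 on the other 4, and the WRKY54 probe was well above background on the crt/KU-2025 arrays only.

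Ldn/KU-2025 was then compared with WT, the comparison that was not used to list the probes and that lies within slide 1. It shares the WT arrays with the comparison that was used. Of the 3 probes, 0 were called, which required a change of at least 3-fold and an adjusted p under 0.05, while 0.968% of all probes were called higher and 0.196% lower. At an adjusted p under 0.05 with no fold threshold, 1 of 3 passed and was higher, against 6.33% of all probes higher and 1.48% lower. At an unadjusted p under 0.05, 2 of 3 were higher, against 17.1% of all probes. The median of the 3 log2 ratios was 0.50, and that of all probes was -0.02.

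The unnumbered WRKY probe, MUGEST2003_23lib_Contig5310_624, rose in Ldn/KU-2025 by 1.42-fold, with a log2 ratio of 0.50 ± 0.08 (SE, n = 2 and 2) and an adjusted p of 0.0417 by limma. It passed narrowly, and without any 1 of the WT or Ldn/KU-2025 arrays the adjusted p was 0.17 to 0.22. The adjusted p was 0.064 when the arrays were scaled to the 75th percentile, 0.094 after quantile normalization, 0.14 after normexp background correction, 0.11 with the replicate number as a block and 0.081 by the methods' t-test.

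The WRKY10 probe, rwhcs14n21_490, had a ratio of nearly the same size, 1.41-fold or 0.50 ± 0.13 on the log2 scale (SE), but did not pass by limma (adjusted p = 0.108). Its crt/KU-2025 arrays differed more from each other than its other arrays did, and this spread entered the shared estimate. With WT and Ldn/KU-2025 fitted alone, the adjusted p by limma was 0.015. By the methods' t-test it was 0.042. The probe also passed with either crt/KU-2025 array left out. It did not pass without any 1 of the WT or Ldn/KU-2025 arrays, nor under the settings that follow. There the adjusted p by limma was 0.17 after quantile normalization, 0.11 under scaling to the 75th percentile and 0.16 after normexp. It was 0.17 with the replicate number as a block and 0.081 with the filter on dim probes. Both Ldn/KU-2025 arrays were above both WT arrays for the WRKY10 probe and the unnumbered WRKY probe, that is for 2 of 3 probes, and for 35% of all probes. Larger ratios were measured for 13.3% of all probes than for the WRKY10 probe and for 13.1% than for the unnumbered one.

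For the WRKY54 probe, wheat0130Contig6080, neither line was well above background and no fold is given. Its WT signals lay between the 2 Ldn/KU-2025 signals, and the adjusted p by limma was 0.783.

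The spread between the crt/KU-2025 arrays is a description, since the study's test on these arrays, by which the 3 WRKY probes were listed, favors probes of small spread. The difference between the 2 crt/KU-2025 arrays had a median size of 0.195 on the log2 scale over the 3 WRKY probes, with a range of 0.0942 to 0.34, and 0.196 over all probes. Over the 15 WRKY probes described here it reached 0.719. For the leaf probes the median was 5.2 and for the division probes 2.37. The ratios of the 3 WRKY probes to WT without either crt/KU-2025 array were 5.02 to 5.36 for the WRKY10 probe, 3.94 to 4.03 for the unnumbered one and 2.51 to 2.70 for the WRKY54 probe on the log2 scale. All 16 leaf probes were above their WT mean on both Ldn/KU-2025 arrays and on replicate 2 of crt/KU-2025, while on replicate 1 of crt/KU-2025 7 were above and 9 below, from -4.20 to 5.54 on the log2 scale, and 12 of 16 were well above background. The 5 division probes were below their WT mean on the 4 arrays of the other lines. Their part in the WRKY signals was not tested.

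**Figure D2:**
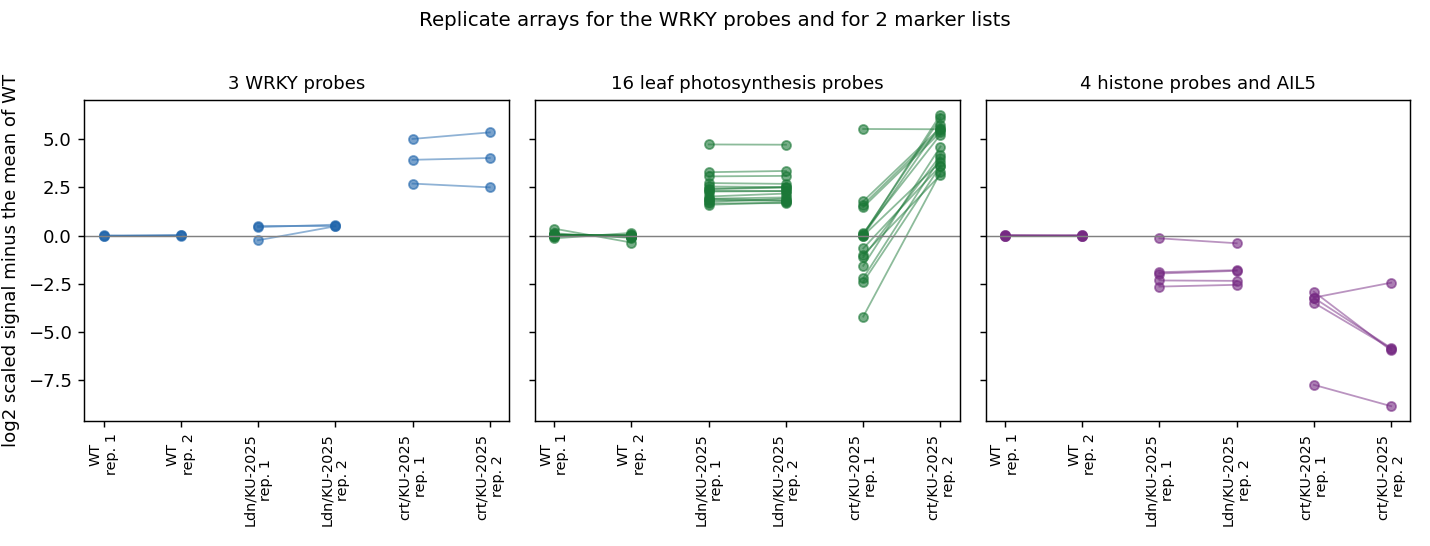
Log2 signal relative to the WT mean on each of the 6 arrays for the 3 WRKY probes, the 16 leaf probes and the 5 division probes, with 1 point per probe and lines joining the replicates of a line. The crt/KU-2025 replicates differed by a median of 0.195 for the WRKY probes, 5.2 for the leaf probes and 2.37 for the division probes.

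The probes whose pattern over the 6 arrays was most like that of each WRKY probe were found among 27932 probes well above background on both crt/KU-2025 arrays. Likeness was the root mean square difference of log2 signals set relative to the WT mean, in which the crt/KU-2025 ratio weighs most, and it is a description with no test. Nearest to the WRKY10 probe, rwhcs14n21_490, was whdp11o04_388, which has no description in the sources used here, at a difference of 0.085. Its scaled signals were 228 and 246 in WT, 352 and 306 in Ldn/KU-2025 and 8319.5 and 10410.2 in crt/KU-2025. Next was wheat0130Contig1636 at 0.105, described as the maize glutathione S-transferase GST 34. Glutathione S-transferases join glutathione to toxic compounds. Its signals were 327 and 385 in WT, 519 and 488 in Ldn/KU-2025 and 12879 and 16099.8 in crt/KU-2025. The third was MUGEST2003_23lib_Contig1183_568 at 0.11.

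Nearest to the unnumbered WRKY probe, MUGEST2003_23lib_Contig5310_624, was wheat0130Contig7136 at 0.037, described only by a rice locus. Its signals were 32.8 and 32.3 in WT, 43.4 and 45.6 in Ldn/KU-2025 and 504 and 537 in crt/KU-2025. It was followed by wheat0130Contig12871 at 0.078, well above background on 4 of the 6 arrays, and wheat0130Contig10802 at 0.096. Nearest to the WRKY54 probe, wheat0130Contig6080, was wheat0130Contig9736 at 0.076, described as the tomato protein compound inflorescence, which is known for a role in the branching of the inflorescence. Its signals were 41.6 and 44.3 in WT, 34.8 and 58.0 in Ldn/KU-2025 and 250.4 and 252 in crt/KU-2025. It was followed by whfl2n10 at 0.114 and whv3n4i18_597 at 0.136, the latter well above background on 2 of the 6 arrays. The patterns of the WRKY54 probe in WT and Ldn/KU-2025 are those of signals not well above background.

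The WRKY probes were not each other's nearest. The unnumbered WRKY probe ranked 336th in likeness to the WRKY10 probe, at 0.702, and the WRKY probe nearest to WRKY10 was wheat0130Contig4886, at rank 290 and a difference of 0.654. Nearest to the unnumbered WRKY probe among the WRKY probes was the same wheat0130Contig4886, at rank 142 and 0.324, with the WRKY45 probe just behind it. The WRKY13 probe was nearest to the WRKY54 probe, at rank 142 and 0.282.

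A further 3 WRKY probes were listed by the study as higher in crt/KU-2025, and their ratios to WT in that line are again a description. The WRKY13 probe, wheat0130Contig12300, had signals of 315 and 322 in WT, 383 and 399.6 in Ldn/KU-2025 and 1525 and 1751 in crt/KU-2025, which was 5.13-fold over WT. The probe rwhcs11i13_559, described as WRKY23, had signals of 68.9 and 88.0 in WT, 181 and 182 in Ldn/KU-2025 and 1445 and 1486 in crt/KU-2025, 18.8-fold over WT. The probe wheat0130Contig4886, described as WRKY70 like the second description of the WRKY54 probe, had signals of 124 and 121 in WT, 123 and 119.8 in Ldn/KU-2025 and 2148 and 2311 in crt/KU-2025, 18.2-fold over WT.

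Of these 3 probes, 1 passed as higher at an adjusted p under 0.05 in Ldn/KU-2025 against WT, where 6.33% of all probes were higher and 1.48% lower. This was rwhcs11i13_559, which rose by 2.33-fold or 1.22 on the log2 scale (adjusted p = 0.0216 by limma). Without any 1 of the WT or Ldn/KU-2025 arrays its log2 ratio was 1.042 to 1.395 and its adjusted p was 0.059 to 0.15. The adjusted p was 0.071 with the replicate number as a block and 0.053 by the methods' t-test, and the log2 ratio was 0.61 after normexp, with an adjusted p of 0.0074. The WRKY13 probe, wheat0130Contig12300, had a log2 ratio of 0.30 and an adjusted p of 0.13 by limma. With the 2 lines fitted alone the adjusted p was 0.032. It was 0.22 after quantile normalization, 0.18 under scaling to the 75th percentile and 0.31 after normexp. With the replicate number as a block it was 0.2, and by the methods' t-test 0.065. The ratio of wheat0130Contig4886 was -0.01 on the log2 scale, with an adjusted p of 0.931.

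The WRKY probes that the study listed for low temperature against 24°C within Ldn/KU-2025 were listed without crt/KU-2025 or WT. For them crt/KU-2025 was tested against WT. The test cannot tell the line from the slide, and the list was taken up with earlier results of these data known. The study listed the WRKY45 probe as higher at low temperature than at 24°C, and the others as lower. Both directions are pooled in the counts and the median here. Of the 9 probes, 2 were called higher and 0 lower, against 11.8% and 11% of all probes. At an adjusted p under 0.05, 4 were higher, 3 were lower and 2 did not pass, against 36.1% of all probes higher and 25.9% lower. The median log2 ratio was -0.03, with a range of -1.02 to 3.62, and that of all probes was 0.10.

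The called probes were those described in the study as WRKY45 of wheat and WRKY22 of barley. The study listed the first as higher at low temperature and the second as lower. WRKY45 of rice is known for salicylic acid-dependent resistance to blast, and WRKY22 of Arabidopsis acts in the response to bacterial flagellin. The WRKY45 probe, MUGEST2003_23lib_Contig9578_175, had signals of 828 and 862 in WT, 1303 and 1237 in Ldn/KU-2025 and 13337 and 8101 in crt/KU-2025. It rose by 12.3-fold (log2 ratio 3.62, adjusted p = 0.00063 by limma). The WRKY22 probe, MUGEST2003_23lib_Contig1326_155, had signals of 381 and 389.9 in WT, 592 and 591 in Ldn/KU-2025 and 1738 and 1393 in crt/KU-2025. It rose by 4.04-fold (log2 ratio 2.01, adjusted p = 0.000451 by limma). By the methods' t-test the adjusted p was 0.12 for the WRKY45 probe and 0.056 for the WRKY22 probe. The WRKY7 probe, MUGEST2003_23lib_Contig4148_13, and the WRKY53-b probe, rwhr20m02, rose by 1.17 and 0.45 on the log2 scale (adjusted p = 0.000383 and 0.0115 by limma). For rwhr20m02 the adjusted p was 0.066 and 0.059 without WT replicate 1 or 2, and 0.053 under scaling to the 75th percentile.

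Lower signals in crt/KU-2025 than in WT were measured for the WRKY19-b probe, the WRKY17 probe and an unnumbered one. The WRKY19-b probe, wheat0130Contig8019, had signals of 14986 and 15365 in WT, 10949 and 11663 in Ldn/KU-2025 and 8477 and 6571 in crt/KU-2025, with a log2 ratio to WT of -1.02 in crt/KU-2025 (adjusted p = 0.00428 by limma). Wheat WRKY19 is known for raising tolerance to salt, drought and cold in transgenic Arabidopsis. The WRKY17 probe, MUGEST2003_23lib_Contig16395_223, had signals of 5765 and 5889 in WT, 10460.1 and 9832 in Ldn/KU-2025 and 2749 and 3340.1 in crt/KU-2025. Against WT, crt/KU-2025 had a log2 ratio of -0.94 (adjusted p = 0.00296 by limma). The study describes the WRKY17 probe by a protein of Brachypodium distachyon. WRKY17 of Arabidopsis is known as a negative regulator of basal resistance to bacteria, but the numbers are not the same between species. The unnumbered WRKY probe wheat0130Contig10100 had signals of 89644 and 89276 in WT, 98099 and 97585 in Ldn/KU-2025 and 44099 and 49802 in crt/KU-2025, with a log2 ratio to WT of -0.93 (adjusted p = 0.00114 by limma).

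The 2 probes that did not pass were wheat0130Contig3983, an unnumbered WRKY, and the WRKY48 probe wheat0130Contig6325. The log2 ratio of wheat0130Contig3983 was -0.16 (adjusted p = 0.137 by limma), and -0.37 with an adjusted p of 0.012 under scaling to the 75th percentile. The ratio of wheat0130Contig6325 was -0.03 (adjusted p = 0.9 by limma). Its sign turned with the array left out, since the crt/KU-2025 signals of 30735 and 22669.6 lay on either side of the WT signals of 26651 and 27083. The ratio was 0.19 without crt/KU-2025 replicate 2 (adjusted p = 0.037) and -0.25 without replicate 1 (adjusted p = 0.02).

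**Figure D3:**
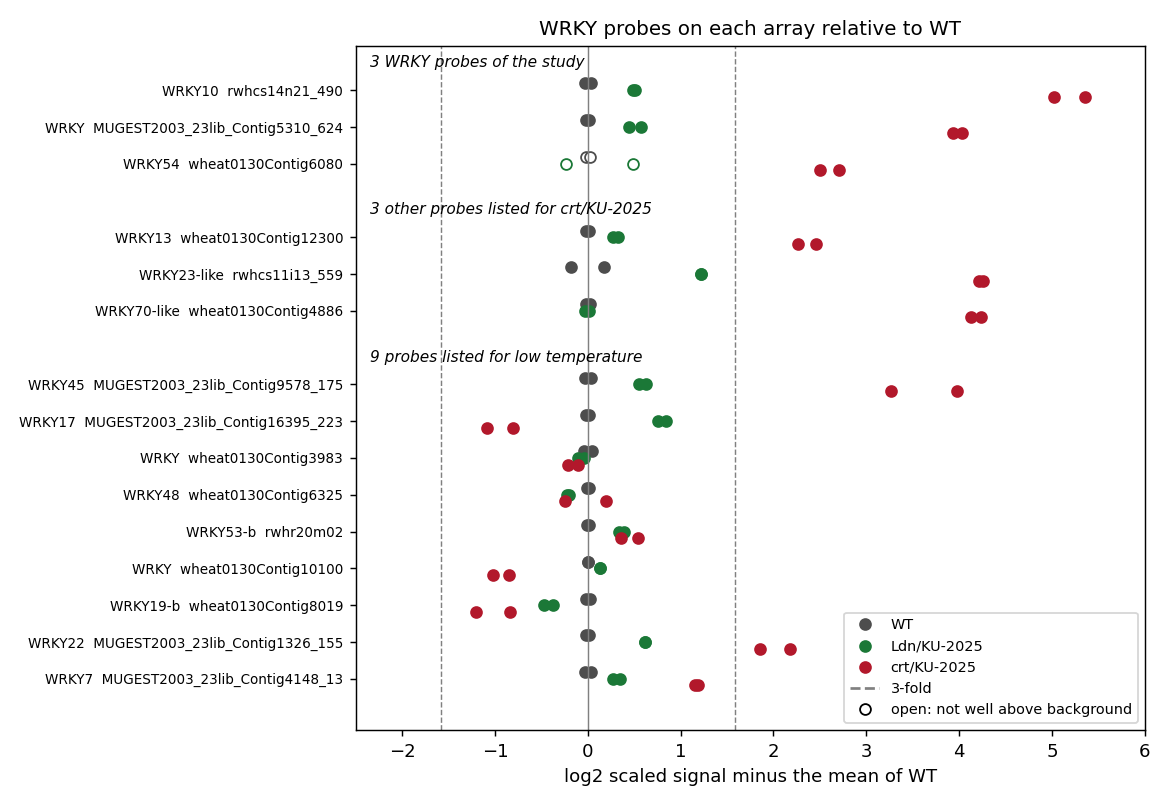
Log2 signal relative to the WT mean on each of the 6 arrays, with dashed lines at 3-fold and open points where a signal was not well above background, for the 3 WRKY probes, the 3 further probes listed for crt/KU-2025 and the 9 listed for low temperature. The 6 probes listed for crt/KU-2025 lay above the WT mean on both crt/KU-2025 arrays, the direction for which they were listed. Of the 9 listed for low temperature, with crt/KU-2025 tested against WT, 4 passed as higher, 3 passed as lower and 2 did not pass. The shares of all probes passing at an adjusted p under 0.05 by limma were 36.1% higher and 25.9% lower.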

How the data were processed

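Cy3-labeled cRNA of crown tissues was hybridized to 6 Agilent arrays in 1 color, 2 per line. The authors deposited scanner tables with Feature Extraction intensity values, background-subtracted and spatially detrended, and a table of intensity values scaled between arrays, by 2500 divided by a mean from which 2% of values were trimmed at each end. The scaled table, a constant times the processed signal of each array (r = 1 on the log2 scale), was used. The labels name Feature Extraction 9.5 and the file headers version 10.7.3.1. The low-temperature arrays were not analysed here.

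Control spots (1417 per array) were removed. The log2 signals of 37826 probes on 6 arrays were fitted with the 3 lines as groups in limma 3.58.1 (lmFit, eBayes; R 4.3.3); residual and prior degrees of freedom were 3 and 1.23. P-values were adjusted by Benjamini-Hochberg over all probes. Python 3.11.15, pandas 2.3.3, numpy 2.4.6 and matplotlib 3.10.9 served for tables and figures. The fit was tested on simulated data, with large changes in bright probes and the spread of the WT and Ldn/KU-2025 arrays. That simulation does not cover the wider spread of the crt/KU-2025 arrays or small changes.

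Named probes were the 3 members, the WRKY probes of the study's lists and, for each member, the 3 probes of the most similar pattern. The members and lists were chosen with earlier results of these data known. In the RefSeq table of wheat genes, 0 of 14 accessions and 0 probe names were found, and neither sequences nor positions are given. The number of arrays limits the precision. Alternatives were other normalizations, normexp background correction, a filter on dim probes, a replicate block, a fit of 2 lines, the methods' t-test, a 2-fold threshold and each array left out.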

Additional observations from a re-analysis of the deposited data

Results flagged for a closer look

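The probes MUGEST2003_23lib_Contig16395_223 (WRKY17) and wheat0130Contig10100 (an unnumbered WRKY), both from the low-temperature list, were picked out because both Ldn/KU-2025 arrays were above both WT arrays while both crt/KU-2025 arrays were below. For MUGEST2003_23lib_Contig16395_223 the log2 ratio to WT was 0.80 for Ldn/KU-2025 and, for crt/KU-2025, -0.94, and the difference between the lines was -1.74. For wheat0130Contig10100 the ratio was 0.13 for Ldn/KU-2025 and, for crt/KU-2025, -0.93, and the difference was -1.06. The probes were picked for this pattern on these arrays, so that no p is given for it here and the difference between the lines counts as not tested. The crt/KU-2025 arrays form a slide of their own.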

How the results depend on the processing

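The log2 ratios of the WRKY10 and unnumbered WRKY probes kept their direction under all alternatives run. With the arrays left out in turn, they ranged in Ldn/KU-2025 against WT from 0.469 to 0.527 for WRKY10 and 0.439 to 0.571 for the unnumbered probe, in crt/KU-2025 against WT from 5.019 to 5.359 and 3.935 to 4.03, and in crt/KU-2025 against Ldn/KU-2025 from 4.521 to 4.861 and 3.411 to 3.543. Those of the WRKY54 probe ranged from -0.241 (without Ldn/KU-2025 replicate 2) to 0.483, 2.506 to 2.701 and 2.12 to 2.844. For Ldn/KU-2025 against WT, the WRKY10 probe passed at 0.498 with the 2 lines fitted alone and by the methods' t-test. It also passed with either crt/KU-2025 array left out. The unnumbered probe no longer passed at 0.421 under quantile normalization and 75th-percentile scaling, 0.268 after normexp and 0.506 by the t-test. In crt/KU-2025 against WT, normexp gave 4.466 for WRKY10, 3.07 for the unnumbered probe and 0.614 for WRKY54, against Ldn/KU-2025 4.146, 2.802 and 0.404. Its offset of 50 lowers ratios of dim probes by construction. It was run on median spot signals, since mean signals are not in the tables used. The unnumbered probe had 3.8 under quantile normalization and 3.777 under 75th-percentile scaling against WT, 3.355 under the latter against Ldn/KU-2025, and WRKY54 had 2.4 under it against WT. That scaling moved the median of all probes from -0.02 to -0.11 for Ldn/KU-2025 and from 0.10 to -0.11 for crt/KU-2025 against WT.

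The replicate numbers did not pair the arrays (correlation of deviations of -0.26, 0.08 and -0.12). With the replicate block, the unnumbered probe had 0.505 and no longer passed, and 143 probes were called higher and 30 lower in Ldn/KU-2025 against WT. A crossed pairing, added after seeing the data, gave 210 and 37.

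Over all probes in Ldn/KU-2025 against WT, calls were 366 higher and 74 lower, 89 and 24 after normexp, 851 and 160 at 2-fold, 113 lower with the 2 lines alone, and 61 (without Ldn/KU-2025 replicate 1) to 529 (without crt/KU-2025 replicate 1) higher and 15 to 113 lower with an array left out. In crt/KU-2025 against WT, 4464 were higher and 4155 lower, 2030 and 2554 after normexp, 2581 higher by the t-test, 7851 higher at 2-fold, and 4163 to 5271 and 3436 to 4258 with an array left out. Against Ldn/KU-2025, 3553 were higher and 3774 lower, 1598 and 2209 after normexp, 1912 higher by the t-test, 6785 and 5837 at 2-fold, and 3284 to 4286 and 2983 to 4013 with an array left out. Of the 9 low-temperature probes, 2 were called higher and 0 lower, 1 higher after normexp, 0 higher by the t-test, and 3 higher and 1 lower at 2-fold. Leaving out an array gave 2 and 0 each time. Ratios near 0 turned their sign. Those of wheat0130Contig4886 in Ldn/KU-2025 against WT ranged from -0.032 to 0.011 with an array left out, with 0.010 without Ldn/KU-2025 replicate 2. Those of wheat0130Contig6325 ranged from -0.245 to 0.194 in crt/KU-2025 against WT, with 0.131 under quantile normalization and 0.090 after normexp, and from -0.03 to 0.41 against Ldn/KU-2025. Those of rwhr20m02 against Ldn/KU-2025 ranged from -0.003 to 0.177, with -0.035 under 75th-percentile scaling. Other causes were not tested. The slide was not fitted as a block, since it coincides with crt/KU-2025.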
